A study of Ovis aries with 2 samples.

Results

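Metallothionein-high erythroid cells were red-cell precursors of Ujumqin sheep embryos in which transcripts of MT1A, MT1C and MT2 together made up at least 15 of every 10000 unique molecular identifiers (UMIs, the tags that count captured RNA molecules). A barcode was kept when it had 200 or more genes and its mitochondrial UMIs were under 10%, and a kept cell was erythroid when ALAS2, AHSP, KLF1 and HEMGN together had at least 5 UMIs and at least 5 per 10000. The cells were thus chosen by measured levels of these 7 genes, which gave 884 cells among 5186 erythroid cells, a share of 17.0% (exact Clopper-Pearson 95% interval 16.0 to 18.1%), and 6.07% of the 14554 kept Ujumqin cells. The other 4302 erythroid cells, under 15 per 10000, were the comparison throughout. The kept cells of the whole series numbered 24137.

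The study asked which cell types make up sheep embryos at embryonic day 16 in the breeds Ujumqin, its control group, and Hulunbuir Short-tail, its experimental group. RNA of single cells was captured in droplets and counted at its 3′ end in 1 library per breed, with 212933364 UMIs over 17059 barcodes for Ujumqin and 131385353 UMIs over 10709 barcodes for Hulunbuir. Ewes of both breeds had received progesterone sponges and PMSG before mating. Tissue of both breeds had passed through enzymes and a buffer that lyses red blood cells, and extraembryonic tissue had been taken off with forceps. The deposited design names 3 animals per breed, but embryos were pooled after dissociation and no file tells their cells apart, so the library is the only unit and no test was possible.

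Metallothioneins are small proteins rich in cysteine that bind zinc and copper ions. Their genes are switched on by metal ions through the factor MTF1, and also by glucocorticoids and by oxidative stress. Erythroid cells take up much iron and build heme for globin chains, and the earliest of them form in the blood islands of the yolk sac and circulate with a nucleus.

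Hulunbuir erythroid cells could not serve as a second sample. The same rule found 4 erythroid cells among 9583 kept Hulunbuir cells, and 0 of the 4 were metallothionein-high, for which the exact interval reached up to 60.2%. Those 4 cells held 11 UMIs of MT2 and none of MT1A or MT1C among 34007 UMIs, a summed level of 323 UMIs per 1000000 (CPM, the scale of every level given here; exact Poisson interval 161 to 579). That interval includes the 305 CPM of the Ujumqin erythroid cells under the threshold. The libraries shared 61 barcodes, 2 of them metallothionein-high cells. All intervals given for levels, ratios and shares cover counting error only, and differences between embryos are not in them.

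The erythroid label was checked on genes outside the rule. The 4 erythroid genes chose the cells, so their levels are only a description: ALAS2, the first enzyme of heme synthesis in red cells, stood at 441 CPM in metallothionein-high cells, 475 CPM in the other erythroid cells and 15.4 CPM in the 9368 kept cells outside the rule. AHSP, which keeps free alpha globin soluble, stood at 1033, 1179 and 42.5 CPM in the same groups. KLF1, an erythroid transcription factor, gave 127, 135 and 4.11 CPM, and HEMGN, a nuclear protein of blood precursors, 86.1, 84.2 and 2.60 CPM. Some erythroid genes that the rule did not use also had both erythroid groups far above the other cells. GATA1, the master transcription factor of the lineage, had 77.2, 81.7 and 9.17 CPM. SLC4A1, the anion exchanger of the red cell membrane, had 6.21, 6.17 and 0.315 CPM. The sum of the erythroid factor list was 119, 133 and 53.3 CPM, most of it GATA1 in the erythroid groups, while erythroid cytokine signalling, at 12.7, 13.8 and 13.2 CPM, did not set erythroid cells apart. The list of red cell membrane and surface genes, with SLC4A1 in it, summed to 153, 163 and 73.5 CPM, a smaller contrast. By GATA1 and SLC4A1, which were picked from these lists, the metallothionein-high cells stood with the other erythroid cells.

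In depth and quality the groups were close. Metallothionein-high cells had a median of 19516.5 UMIs, 1519.5 genes and 1.83% mitochondrial UMIs per cell, against 21040.5 UMIs, 1669 genes and 1.93% in the other erythroid cells. In all, 17887004 UMIs lay behind the levels of metallothionein-high cells and 93235361 behind those of the others. Scrublet, which scores barcodes for the look of merged cells, marked 7 metallothionein-high cells (0.792%), 95 other erythroid cells (2.21%) and 159 of all kept cells (1.09%), and marked cells were kept.

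Metallothionein content ran without a gap across the erythroid cells, so the metallothionein-high cells were the upper end of a range. No metallothionein UMI was seen in 1034 erythroid cells, 879 cells had some but under 1 per 10000, and 1390 had 1 to 5. Another 618 cells had 5 to 10 and 381 had 10 to 15. Above the threshold were 208 cells at 15 to 20, 257 at 20 to 30, 296 at 30 to 60, 86 at 60 to 100 and 37 at 100 or more. The median metallothionein-high cell had 29.0 per 10000, from 57 metallothionein UMIs, and the highest had 506 per 10000. Next to the threshold, which fixes these levels, 135 cells at 13 to 15 per 10000 had a median of 27 metallothionein UMIs, and 91 cells at 15 to 17 had 32. MT2 stood at 1105 CPM just below the threshold and 1270 CPM just above it, MT1C at 252 and 281 CPM, and MT1A at 36.2 and 40.0 CPM.

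**Figure D1:**
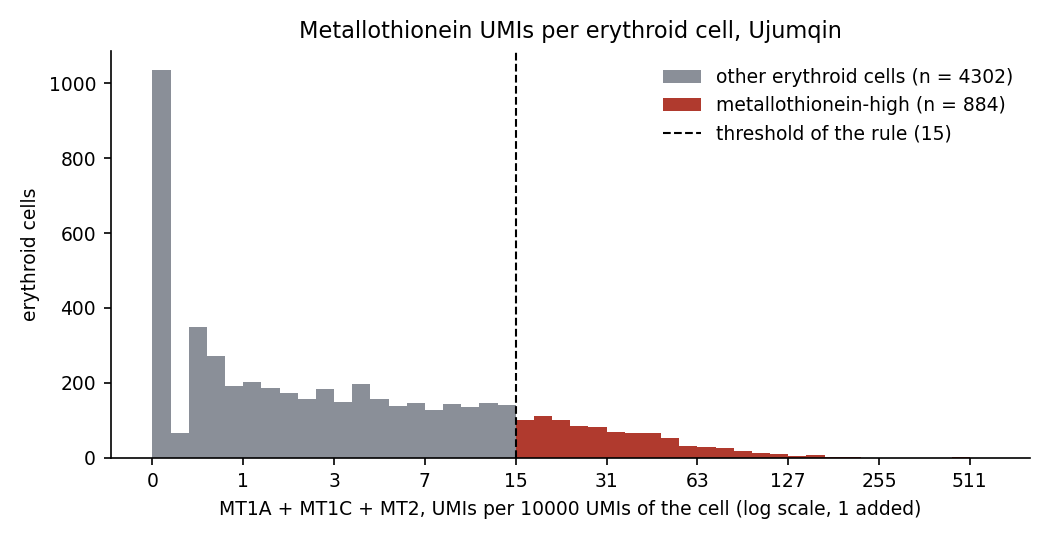
Number of Ujumqin erythroid cells by summed UMIs of MT1A, MT1C and MT2 per 10000 UMIs of the cell, with the threshold of 15 per 10000 that separates the 884 metallothionein-high cells from the 4302 others. The axis is on a log scale after 1 is added; no separate peak stands above the threshold, and 1034 cells had no metallothionein UMI.

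All 3 metallothionein genes of the rule made up the signal, and their levels are a description of how the cells were chosen. MT2 (ENSOARG00020023664) stood at 2709 CPM in metallothionein-high cells and 251 CPM in the other erythroid cells. MT1C (ENSOARG00020023648) stood at 762 and 45.6 CPM, and MT1A (ENSOARG00020023615) at 322 (314 to 331) and 7.69 CPM. The sum was 3794 against 305 CPM. Of the metallothionein UMIs in metallothionein-high cells, MT2 supplied 71.4%, MT1C 20.1% and MT1A 8.49%, as UMIs at the 3′ end and not per length. MT3 and MT4, family members known from brain and from stratified epithelium, were at 0 UMIs in metallothionein-high cells, for which 3 counts of the total set a limit of 0.168 CPM each.

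MT2 was the broad component and MT1A the narrow component. MT2 had the most UMIs of the 3 in 778 metallothionein-high cells, MT1C in 61 and MT1A in 45. MT2 was missing from 2 metallothionein-high cells and MT1C from 135, while MT1A was missing from 686. Even so, 111 metallothionein-high cells had at least 5 MT1A UMIs, against 27 of the other erythroid cells, and the cell with the most had 269. The MT1A level therefore came from a minority of cells, whereas nearly every metallothionein-high cell carried MT2.

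Shares of cells with a UMI had the same order after each cell was thinned to 5000 UMIs, which left out 23 metallothionein-high and 109 other cells. MT2 was then found in 98.8% of metallothionein-high cells and 47.9% of the others (99.8 and 71.7% before thinning). MT1C was found in 74.1 and 13.3% (84.7 and 26.1% before), and MT1A in 15.2 and 2.46% (22.4 and 7.60% before). For the background from free RNA, 2233 cells high in COL1A1, COL1A2, COL3A1, LUM and DCN, with a median of 23358 UMIs, served as cells that should hold little metallothionein. After thinning, which left out 577 of them, they gave 8.03% for MT2, 2.05% for MT1C and 0.906% for MT1A (31.4, 6.72 and 6.14% before). MT2 in the erythroid cells under the threshold was above the share in these cells, and so was their MT1A, at 2.46 against 0.906%. By level, however, Ujumqin barcodes with under 200 genes held MT2 at 297 CPM, no lower than the 251 CPM of the erythroid cells under the threshold, and what those barcodes hold was not tested.

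MT1C and MT2 went together over the erythroid cells. Spearman's rho over all 5186 cells of 1 library was 0.57 for this pair, with depth shared by both genes, 0.18 for MT1A with MT1C and 0.13 for MT1A with MT2. Over the 4302 cells under the threshold it was 0.36 for MT1C with MT2. Within these cells, as within metallothionein-high cells, such values say little, since both groups were chosen by the sum of the 3 genes. Weak values in sparse counts are no finding.

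Cells outside the erythroid rule placed these levels in context. As a whole group, the highest metallothionein level was that of 229 cells high in AHSG, APOA1, TTR and AFP, transcripts of the extraembryonic endoderm and fetal liver, which held 5371 CPM, with MT1A at 2323, MT1C at 1203 and MT2 at 1845 CPM. Their median was only 1094 UMIs per cell. MT1A supplied 43.2% of their metallothionein UMIs, so their mix differed from the 8.49% of metallothionein-high erythroid cells. The highest single cell was erythroid, at 506 per 10000 against 332 outside the rule. The COL1A1-high cells held 27.9 CPM in sum, and 175 cells high in PECAM1, CDH5, KDR, EGFL7 and PLVAP, genes of blood vessel walls, held 44.7 CPM. The remaining 6731 kept cells held 111 CPM. Over all kept cells outside the rule the sum was 287 CPM, close to the erythroid cells under the threshold, and most of it came from the AHSG-high cells. In 998 Ujumqin barcodes with under 200 genes the sum was 479 CPM, and in kept Hulunbuir cells outside the rule it was 11.3 CPM. The limits of these marker groups (200, 30 and 10 per 10000 over the genes named) were chosen after the data were seen. Near the limit of 200, counted on both sides of it, lay 24 cells outside the erythroid rule, which need not all be among the 229.

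**Figure D2:**
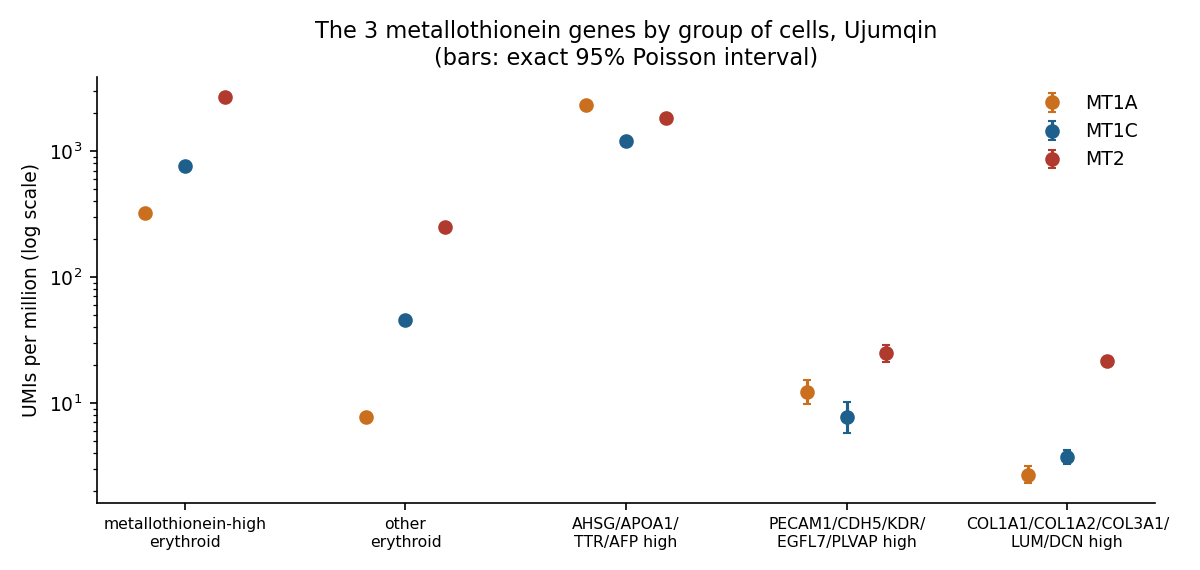
Levels of MT1A, MT1C and MT2 in CPM (log scale) in 5 groups of Ujumqin cells, with exact Poisson 95% intervals as bars. MT2 stands at 2709 in metallothionein-high erythroid cells and 251 in the other erythroid cells, while MT1A is highest, at 2323, in cells high in AHSG, APOA1, TTR and AFP.

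Genes that handle zinc and copper did not follow the metallothioneins. Of 18 such genes with at least 20 UMIs, 5 were higher and 13 lower in metallothionein-high cells, with a median log2 ratio of −0.08 beside −0.17 over all 9164 features with 20 UMIs. Of those features 6877 were lower. SLC30A1, the zinc exporter that MTF1 also switches on, stood at 17.9 CPM in metallothionein-high cells and 19.0 CPM in the others. SLC39A8, an importer of zinc and manganese, stood at 30.02 and 25.6 CPM. Glucocorticoid targets, another arm of metallothionein control, had a median of −0.12 over 7 genes, and FKBP5, a classical target, stood at 16.2 and 17.6 CPM. Antioxidant genes had 5 higher and 18 lower of 23, with a median of −0.08. PRDX2, the main peroxiredoxin of red cells, was at 5187 and 5142 CPM, and GPX1, a glutathione peroxidase, at 2582 and 2690 CPM. None of these lists stood above the all-feature median by as much as 0.1.

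Heme synthesis and iron handling were also close to equal. Of 15 heme genes outside the rule, 5 were higher and 10 lower, where 6877 of all 9164 features were lower. Their median log2 ratio was −0.04. ALAD, the second enzyme of the pathway, stood at 603 CPM in metallothionein-high cells and 632 CPM in the others, and TMEM14C, a mitochondrial porphyrin carrier, at 1611 and 1657 CPM. The pathway was thus nearly level between the groups. BLVRB, which reduces biliverdin, was at 2079 and 2103 CPM. Iron genes had a median of −0.12, with 5 higher and 10 lower of 15: FTH1, the ferritin heavy chain, stood at 14451 and 13939 CPM, and TFRC, the transferrin receptor, at 6.37 and 6.61 CPM. TF, the iron carrier of plasma, was the exception, at 29.5 and 3.71 CPM, and at 7.29 and 3.71 CPM (0.98, 0.67 to 1.28) without the cells that are left out below. The 3 globins with a symbol in the files, HBB, HBM and HBQ1, made up 0.0118% of UMIs in metallothionein-high cells and 0.0125% in the others, and globins without a symbol could not be named. HBQ1, a theta globin, was at 91.8 and 94.4 CPM.

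Transcription factors of the lineage were lower about as often as features in general. Of 14 erythroid factors outside the rule, 4 were higher and 10 lower, where 6877 of all 9164 features were lower, and the median was −0.25 beside −0.17 for all features. GATA1 had a log2 ratio of −0.08, with an interval from −0.17 to 0.00. ZFPM1, the partner protein of GATA1, stood at 17.9 and 21.2 CPM, and NFE2, a factor for globin genes, at 4.86 and 5.74 CPM. Genes of the red cell membrane had a median of −0.06 and genes of cytokine signalling −0.01.

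Beyond metallothioneins the erythroid groups had nearly the same transcriptome. Among 1028 features with at least 50 CPM in either group and at least 50 UMIs, 899 (87.5%) lay within 1.2-fold, and the median log2 ratio was −0.13. At least 2-fold higher in metallothionein-high cells were 5 features (0.486%), and at least 2-fold lower were 4 (0.389%). At 1.5-fold the counts were 8 (0.778%) and 10 (0.973%). The 2-fold features with a symbol are known mainly from tissues other than blood, while the lower ones at 1.5-fold also included broadly expressed genes such as MGST3, HSP90B1, TUBA4A and ACTG1.

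All 5 higher features came mainly from 1 cell. AHSG, the fetal plasma protein fetuin-A, stood at 569 CPM in metallothionein-high cells and 67.0 CPM in the others. SERPINA1, a secreted protease inhibitor, stood at 198 and 24.6 CPM. TTR, a carrier of thyroid hormone, stood at 108 and 13.0 CPM, and AFP, the fetal albumin, at 62.5 and 16.2 CPM. The last was a feature without symbol, at 142 and 10.1 CPM. In each, between 66.0 and 79.8% of the UMIs in metallothionein-high cells lay in the same cell, which had 7962 AHSG UMIs among 65561 UMIs, 3198 genes, 191 metallothionein UMIs and 50 UMIs of the 4 erythroid genes. Without that cell 1 feature of at least 50 CPM stayed past 2-fold, SERPINA1 at 54.6 CPM, and AHSG stood at 124 CPM. TTR, at 27.8 against 13.0 CPM, and the feature without symbol, at 28.8 against 10.1 CPM, were still past 2-fold but under 50 CPM. Without the 3 metallothionein-high cells of over 100 AHSG UMIs (7962, 575 and 440) no feature of at least 50 CPM was past 2-fold higher, and AHSG stood at 67.1 against 67.0 CPM. That limit was not applied to the other erythroid cells, so the removal lowered 1 side only and equal levels are partly set by it. The richest of those other cells held 4.58% of their 6251 AHSG UMIs.

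Over the whole list of extraembryonic endoderm markers, 9 of 11 genes with 20 UMIs were above 0 on the log2 scale, where 2287 of 9164 features were. The summed level was 1324 against 317 CPM. AHSG was the most abundant and CUBN was at 0 in metallothionein-high cells. The median metallothionein-high cell had 49.8 CPM of AHSG and the median other erythroid cell 46.1 CPM, so the bulk of the cells did not differ in it. Without the 3 cells SERPINA1 stood at 27.7 against 24.6 CPM (0.17, 0.03 to 0.31), TTR had a log2 ratio of 0.11 (−0.09 to 0.31) and AFP 0.03 (−0.15 to 0.22), so most of the higher levels came from those cells. No such cells were taken from the other erythroid cells, so these ratios near 0 are partly set by the removal.

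The 4 lower features were concentrated in erythroid cells that also carried markers of other tissues. VIM, the intermediate filament of mesenchyme, stood at 83.5 CPM in metallothionein-high cells and 198 CPM in the others. COL1A1, a chain of type I collagen, stood at 26.0 and 56.0 CPM. CALD1, an actin-binding protein of contractile cells, stood at 21.0 and 74.5 CPM. ENSOARG00020002928, without a symbol and chosen for mention after its values were seen, stood at 153 and 492 CPM. In the full list of mesenchyme markers 10 of 12 genes were below 0, where 6877 of all 9164 features were. That list summed to 193 against 438 CPM, with VIM the most abundant and none at 0. In the megakaryocyte list 5 of 6 were below 0, with a sum of 11.1 against 41.4 CPM. Its most abundant gene was GP1BB, a platelet receptor chain, at 6.43 and 23.1 CPM, and PPBP, GP1BA and TUBB1 were at 0 in metallothionein-high cells. Both counts below 0 were near the share of all features, and the lists stood apart by their sums.

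Those markers sat in 2 small subclusters. Clustering the erythroid cells without the metallothionein genes and without the 4 genes of the rule gave 7 subclusters, numbered by size. Subcluster 5, of 200 cells, was led by VIM, COL1A1 and LUM, had a median of 31648.5 UMIs and held 91 cells marked by Scrublet. Subcluster 7, of 104 cells, was led by GNG11, GP1BB and CLEC1B. Only 7% and 4.81% of their cells were metallothionein-high. Without subclusters 5 and 7 no feature was 2-fold lower, and VIM stood at 39.7 CPM in metallothionein-high cells and 37.3 CPM in the others.

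With the cells of subclusters 5 and 7 and the cell richest in AHSG left out, a choice made after the data were seen, 864 metallothionein-high cells were compared with 4017 others. Of 985 features, 935 (94.9%) then lay within 1.2-fold. Past 2-fold were 1 higher (0.102%), SERPINA1, and 0 lower (0%). Past 1.5-fold were 3 higher (0.305%), SERPINA1, AHSG and a feature without symbol, and 1 lower (0.102%), ENSOARG00020002928 at 76.7 against 130 CPM. The sums of the mesenchyme list (86.2 against 80.5 CPM) and of the megakaryocyte list (4.40 against 4.81 CPM) were then near equal, and that of the extraembryonic endoderm list was 445 against 303 CPM. The smaller differences described next are from these cells.

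**Figure D3:**
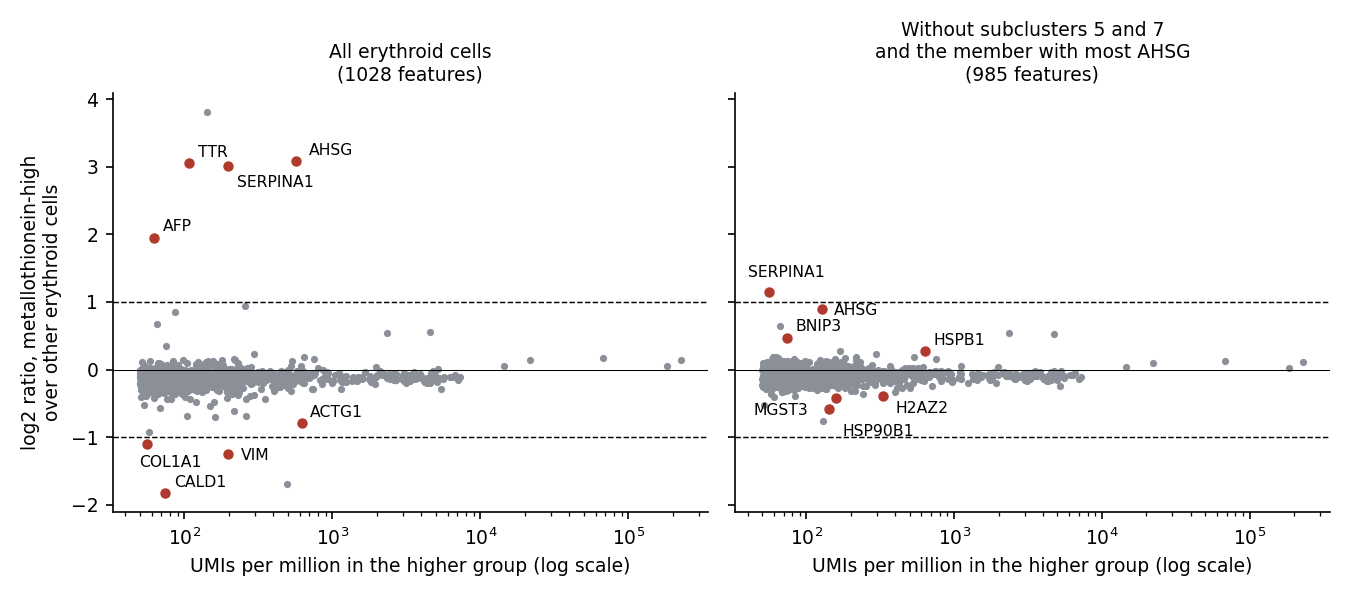
Log2 ratio of levels, metallothionein-high over other erythroid cells, against the level in the higher group in CPM (log scale), each point a feature and dashed lines at 2-fold, without the genes of the rule. On the left, with all erythroid cells, 5 features lie above and 4 below the lines; on the right, without subclusters 5 and 7 and the cell richest in AHSG, 1 lies above and none below.

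Small shifts remained. After SERPINA1 and AHSG, the gene with a symbol of largest log2 ratio among the 985 was BNIP3. This gene, for a mitochondrial protein of hypoxia and mitophagy, stood at 74.4 CPM in metallothionein-high cells and 53.5 CPM in the others, a log2 ratio of 0.47 (0.38 to 0.56). Its level was graded over bins of metallothionein content, whose limits were set after the data were seen. It went from 44.9 CPM in 1746 cells under 1 per 10000 through 56.0 and 66.4 CPM at 1 to 5 and 5 to 15, and it was 73.5, 76.5 and 72.8 CPM at 15 to 30, 30 to 60 and 60 or more. Most of that difference lay below the threshold of 15, among cells that the rule did not call metallothionein-high.

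Other genes of the hypoxia list were higher as well. SLC2A3, a glucose transporter, stood at 15.2 and 10.6 CPM (0.52, 0.32 to 0.72). The glycolytic enzymes TPI1 at 14.9 and 11.4 CPM (0.38), PGK1 at 534 and 470 CPM (0.18), ENO1 (0.18), ALDOA (0.19) and LDHA at 82.0 and 73.8 CPM (0.15) were higher. GAPDH, of the same pathway, had a log2 ratio of −0.02, and HIF1A, the hypoxia factor itself, −0.15 with an interval from −0.61 to 0.29. Over the list, 15 of 20 genes were above 0, with a median of 0.16 beside −0.09 for all features. By that all-feature median most features were below 0 in these cells. The sum of the list was 1710 against 1602 CPM (0.09). With all cells in, the median was −0.12 beside −0.17 and 12 of 25 genes were above 0, where 2287 of 9164 features were, and the sum was 1769 against 1799 CPM. In that set its median stood only 0.05 above that of all features, beside 0.08 for the zinc and copper list. Only the smaller set, with fewer genes at 20 UMIs, had a median above 0. PGK1 stood at 474 CPM under 1 per 10000, 454 CPM at 1 to 5 and 484 CPM at 5 to 15, and then at 512, 558 and 560 CPM above the threshold.

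HSPB1, a small heat shock protein, and UCP2, a carrier of the inner mitochondrial membrane, were also higher. HSPB1 stood at 636 and 526 CPM (0.27, 0.24 to 0.30), and ran from 467 CPM in the lowest metallothionein bin to 648 CPM in the highest. UCP2 stood at 296 and 253 CPM (0.23), and ran from 236 to 319 CPM. IGFBP2, which binds insulin-like growth factors, stood at 218 and 192 CPM (0.18), but its course was uneven, from 164 CPM in the lowest bin through 236 CPM at 30 to 60 to 188 CPM in the highest. The heat shock list, with HSPB1 in it, had 9 of 13 genes above 0 and a median of 0.07 beside −0.09. DNAJB1, a partner of Hsp70, was at 0.21 (0.09 to 0.33) and FKBP4, a partner of Hsp90, at 0.12 (0.04 to 0.20), while HSPA8, the constitutive Hsc70 chaperone, was at −0.05 and HSPA1A, an inducible Hsp70, at 0.01.

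ENSOARG00020019951, a feature without symbol, was chosen for mention after its values were seen. It stood at 2335 CPM in metallothionein-high cells and 1599 CPM in the others (0.55). Over the metallothionein bins it was higher at each step, through 1302, 1696, 2025, 2213, 2313 and 2857 CPM. In 5 groups of equal size ordered by this feature, 5.02, 12.0, 15.2, 22.2 and 34.1% were metallothionein-high, and its rho with metallothionein content was 0.40 over 4881 cells of 1 library. ENSOARG00020004525, chosen in the same way, stood at 4720 and 3276 CPM (0.53), but very unevenly, with per-cell medians of 229 and 161 CPM and 95th percentiles of 23997 and 13520 CPM over all erythroid cells.

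**Figure D4:**
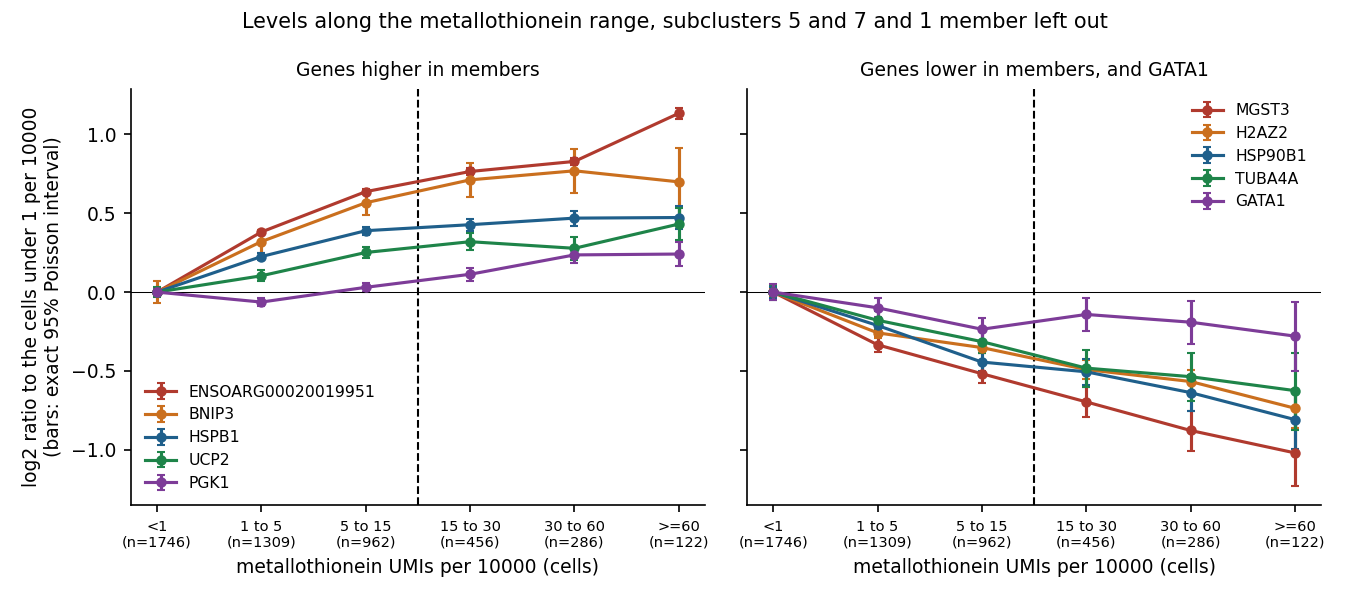
Log2 ratio of the level of each gene to its level in the lowest bin, in erythroid cells binned by summed MT1A, MT1C and MT2 per 10000 UMIs, without subclusters 5 and 7 and the cell richest in AHSG; bars are exact Poisson 95% intervals. ENSOARG00020019951 is higher at each step, from 1302 to 2857 CPM; BNIP3 goes from 44.9 to 72.8 with its highest value in the bin before the last, and MGST3 goes from 164 to 81.2.

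Among lower genes with a symbol and at least 50 CPM the largest ratio was that of MGST3, a microsomal glutathione transferase. It stood at 94.8 CPM in metallothionein-high cells and 142 CPM in the others (−0.58, −0.66 to −0.51), and was lower at each step over the bins, through 164, 131, 115, 102, 89.6 and 81.2 CPM. H2AZ2, a histone variant, stood at 251 and 329 CPM (−0.39) and went from 367 CPM in the lowest bin to 220 CPM in the highest. TUBA4A, an alpha tubulin, had a log2 ratio of −0.39. The courses of MGST3 and H2AZ2 were graded, with no step at 15 per 10000.

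Some chaperones of the endoplasmic reticulum were lower too. HSP90B1, the Hsp90 of that compartment, stood at 118 and 159 CPM (−0.42) and went from 178 to 102 CPM over the bins. CALR, a calcium-binding chaperone, had a log2 ratio of −0.33 and went from 74.8 to 44.5 CPM. HSPA5, the compartment's Hsp70, had −0.29 and PDIA4, a disulfide isomerase, −0.12 (−0.60 to 0.33), while ATF4, the factor of the integrated stress response, had −0.12. With all cells in, 4 genes of the unfolded protein list were above 0 and 14 below, a share near that of all features (6877 of 9164 below), with a median of −0.26 beside −0.17, and without subclusters 5 and 7 and the AHSG-rich cell the median was −0.14 beside −0.09. Immediate early genes had 4 above and 15 below with all cells in, also near that share, with a median of −0.27 beside −0.17, and then 5 above and 13 below, with −0.16 beside −0.09: JUN, a component of AP-1, had −0.27 and BTG1, an antiproliferative gene, −0.29.

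Genes of the G2 and M phases were slightly lower. Of 40 genes of the G2 and M phase list 36 were below 0, with a median of −0.18 beside −0.09 for all features. Most features were thus below 0 in these cells too. The summed level of the list was 2136 against 2480 CPM (−0.22). CKS2, a cyclin-dependent kinase subunit, stood at 341 and 413 CPM, and TOP2A, the topoisomerase of mitotic chromosomes, at 137 and 159 CPM. S phase genes were mixed, with 13 above and 25 below 0, a median of −0.15 and a sum of 670 against 699 CPM (−0.06), and MCM5, of the replication helicase, was higher, at 150 and 138 CPM. With all cells in, 39 of 41 G2 and M genes were below 0, where 6877 of 9164 features were. The medians of the G2 and M and the S phase lists, −0.20 and −0.16, were near the −0.17 of all features there. There the S and G2 and M lists together had a log2 ratio of −0.19, and −0.12 when the other erythroid cells were weighted to the depth of metallothionein-high cells. With that weighting the all-feature median was −0.16. A ratio of sums and a median over features are unlike measures, so these values do not show whether the lists fell below other features. Without subclusters 5 and 7 the lists together had −0.18 beside an all-feature median of −0.09, and the weighting was not run for those cells.

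The 15 genes with a symbol of largest ratio in each direction were taken at 100 CPM or more over all erythroid cells. Apart from AHSG, SERPINA1, TTR and APOA2, the higher ones were small shifts, at a log2 ratio of 0.23 or below. The lower ones were larger, from −1.25 for VIM to −0.38 for MYL6. Higher were APOA2, an apolipoprotein (259 against 135 CPM, and 168 against 140 CPM without the cells left out above), then UCP2, HSPB1, IGFBP2, PGK1, DNPH1, BLVRA, APRT, ISCA1, POLR3K, UQCC2 and MCM5, of which the last had a log2 ratio of 0.09. Lower were VIM, ACTG1 (a cytoplasmic actin, 359 against 620 CPM), ThymB4X, MGST3, TUBA4A, HSP90B1, S100A10, MANF, GNAS, H2AZ2, PPIB, SSR2, CD63, MYL6 and RABAC1, the last at −0.41. Most of the lower group shrank without subclusters 5 and 7 and the AHSG-rich cell: ACTG1 then had −0.19, ThymB4X −0.17, S100A10 −0.08, CD63 −0.05 and RABAC1 −0.07. MGST3 went from −0.70 to −0.58 and H2AZ2 from −0.44 to −0.39. TUBA4A (−0.68 to −0.39) and HSP90B1 (−0.62 to −0.42) shrank more, but also stayed at −0.39 or below.

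A difference in the makeup of the total lay under all these ratios. The 4 most abundant features, none with a symbol, took 49.6% of UMIs in metallothionein-high cells and 45.8% in the others. Ribosomal protein genes took 14.4 and 15.8%, and mitochondrially encoded genes 1.91 and 2.08%. Over the metallothionein bins the share of the 4 features went from 46.2 to 51.4% and that of ribosomal protein genes from 15.9 to 13.8%. Taking the 4 features out of the total raised the all-feature median by 0.11, from −0.17 to −0.06, and every log2 ratio with it. Ratios between −0.11 and 0 thus change sign, among them the medians of the heme synthesis list (to 0.06), of the zinc and copper list and of the antioxidant list, while their distance from the all-feature median stays as it was. That choice was also made after the data were seen.

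Metallothionein-high cells occurred in every erythroid subcluster. They were 20.5% of the 1336 cells of subcluster 1 and of the 1156 cells of subcluster 2, where RPAIN, MSH6 and YPEL3 led. They were 16.2% of 1133 cells in subcluster 3 and 13.4% of 1098 in subcluster 4, led by SMG1, HMMR and TOP2A. AHSG, SERPINA1 and TTR led subcluster 3, but AHSG stood at 2263 CPM in its metallothionein-high cells, which include the AHSG-rich cell, and at 72.9 CPM in its 949 others, beside 79.8 CPM in the others of subcluster 1. In subcluster 6, of 159 cells led by mitochondrial genes with a median of 6748 UMIs, they were 14.5%. At a finer resolution the highest share was 27.6%. So no subcluster held metallothionein-high cells alone, and those lowest in them were 5 and 7.

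**Figure D5:**
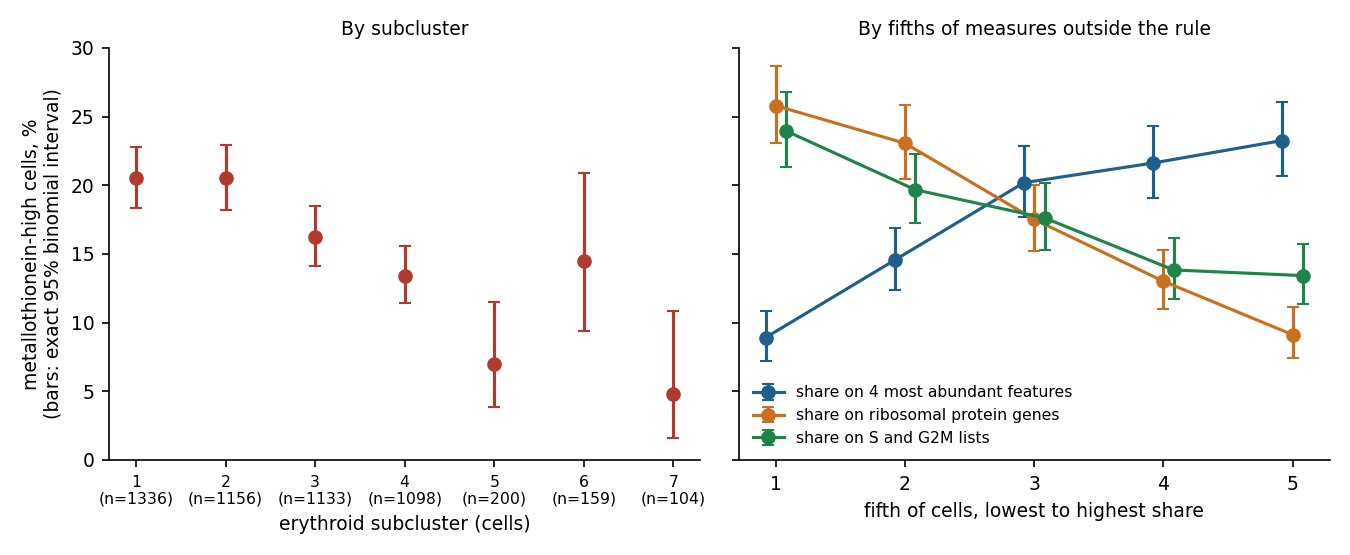
Share of metallothionein-high cells among Ujumqin erythroid cells by subcluster (clustered without the metallothionein genes and the genes of the rule) and by 5 groups of equal size for the share of UMIs on the 4 most abundant features, on ribosomal protein genes and on S and G2 and M genes, with exact Clopper-Pearson 95% intervals as bars. The share is 20.5% in subclusters 1 and 2 and 4.81% in subcluster 7, and it goes from 25.8 to 9.12% over the groups by ribosomal protein share.

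The share moved gradually with other features of the cells. Over 5 groups of equal size by ribosomal protein share, lowest to highest, metallothionein-high cells went from 25.8 to 9.12%. Over such groups by the S and G2 and M lists they went from 24.0 to 13.4%, and by UMIs per cell from 20.8 to 13.7%. By the 4 most abundant features they went from 8.90 to 23.3%. Those groups exclude subclusters 5 and 7 and the AHSG-rich cell, and the measures were chosen after the data were seen. Over all erythroid cells in 5 groups by genes per cell, the share was 22.0% in the lowest and 10.8% in the highest.

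Likeness across cells gave no strong companion among genes with a symbol. Over 5054 erythroid cells of at least 5000 UMIs from 1 library, the 10 genes with a symbol most like summed metallothionein content, out of 782, were HSPB1 (rho 0.19), BNIP3 (0.14), UCP2 (0.12), IGFBP2 (0.12), DNPH1, BLVRA, FTH1, AKR1A1, YBX1 and APOA2. In sparse counts these weak values are no finding. At the other end 20 genes were below −0.2, 16 of them ribosomal protein genes, with RPL32 lowest at −0.26.

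The metallothionein-high cells with MT1A differed little from those without it. The 111 cells with at least 5 MT1A UMIs, a limit chosen after the data were seen, had a median of 20808 UMIs, and the 686 cells at 0 had 19028.5. ALAS2 stood at 418 CPM with MT1A and 449 CPM without, GATA1 at 71.2 and 78.7 CPM, BNIP3 at 76.8 and 75.2 CPM and HSPB1 at 625 and 641 CPM. Of 997 features, 13 were at least 2-fold higher with MT1A (1.3%) and 1 lower (0.1%). The higher ones included FETUB, TF, APOA1, APOM and APOE beside AHSG, all genes of plasma proteins.

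These plasma protein transcripts again came from few cells. All 3 metallothionein-high cells of over 100 AHSG UMIs had at least 5 MT1A UMIs. Without the richest of them, 6 of 986 features were 2-fold higher (0.609%) and 1 was lower (0.101%). Without all 3, AHSG stood at 89.4 CPM in 108 cells with MT1A and 62.9 CPM in those without, and SERPINA1 at 61.0 and 22.7 CPM, a log2 ratio of 1.43 (1.13 to 1.72). MT1C was then at 857 and 706 CPM and MT2 at 2886 and 2643 CPM. The lower feature, in the comparison without only the richest cell, was ENSOARG00020004525, at 2111 and 5010 CPM. MT1A itself, by which they were chosen, stood at 2309 CPM in those 108 cells, beside 2323 CPM in the AHSG-high cells outside the erythroid rule, and the part of such RNA in the cells with MT1A was not tested.

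MT1A was concentrated at the top of the metallothionein range. Over all erythroid cells, the share of cells with at least 5 MT1A UMIs was 0% under 1 per 10000, then 0.504, 2.00, 6.67, 12.2 and 35.8% in the successive bins. In the top bin of 122 cells, without the cells set aside, MT1A stood at 1447 CPM, against 192 CPM in the bin below. MT2 went from 3105 to 5929 CPM between the same bins. The bins use the sum of these genes, so the values describe its makeup: the step to the top bin was steeper in MT1A than in MT2.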

How the data were processed

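The deposited values are counts of UMIs per feature and barcode for 2 libraries, which the authors produced with Cell Ranger on the Rambouillet v1.0 reference without normalizing them. The file header and the paper give version 5.0.0 and the submitters' notes 3.1.0. Everything else was computed here from these counts: levels as CPM from summed UMIs, log2 ratios of sums with exact conditional binomial intervals, shares in percent with Clopper-Pearson intervals. Of 26478 features 9808 have no symbol, and for the 83 symbols that several features carry the first listed was used. Members and gene lists were chosen with earlier results of these data known.

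The tools were scanpy 1.11.5 (Scrublet, expected rate 0.1), anndata 0.12.19, scipy 1.17.1, pandas 2.3.3 and numpy 2.4.6 under Python 3.11.15, with matplotlib 3.10.9, leidenalg 0.10.2, igraph 0.11.9 and scikit-learn 1.9.0. Subclusters used 2000 variable genes, 20 components, 20 neighbours and a resolution of 0.5. Thinning drew 5000 UMIs per cell. Named were genes of the lists, the 15 features with a symbol of largest ratio in each direction (10 CPM added, at least 100 CPM in the higher group and 100 UMIs), and the 10 of highest Spearman correlation with summed metallothionein content. Depth was 212933364 UMIs for Ujumqin and 131385353 for Hulunbuir, with 1 library each and no test. Calling and intervals were run on simulated Poisson sums with planted changes, a setting that leaves out UMIs concentrated in few cells.

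Chosen after seeing the data were the metallothionein bins, the measures split into 5 groups, the marker group limits, the split at 5 MT1A UMIs, the 4 most abundant features, the cells left out and the features without symbol that are named.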

Additional observations from a re-analysis of the deposited data

How the results depend on the processing

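Of 89 values recomputed for 9 results, each under 1 alternative, 54 stayed within counting error or, for counts, within 1.5 times, and 35 did not. The causes were not tested, except where fewer cells or another limit makes the change. The share of metallothionein-high cells was 17.0%, and 24.4% at 10 per 10000, 8.08% at 30 and 10.7% with 20 per 10000 over the erythroid genes. Features 2-fold higher (5) became 0 at 30 per 10000, 3 with the erythroid limit of 20, 8 at 1.5-fold, 8 at 10 CPM and 1096 with no minimum level. They became 1 without the 1 AHSG-rich cell, 0 without 3 such cells of the metallothionein-high group only, and 1 without that 1 cell and subclusters 5 and 7. Features 2-fold lower (4) became 2 at 10 per 10000, 0 with the erythroid limit of 20, 10 at 1.5-fold, 31 at 10 CPM and 4093 with no minimum. They became 0 without subclusters 5 and 7, with or without that cell, and 11 with the 4 most abundant features out of the total. With no minimum most calls rest on few UMIs.

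The heme median (−0.04) was judged by the interval of the summed list. It was −0.068 at 10 and −0.089 at 30 per 10000, −0.058 without Scrublet-marked cells, −0.067 without mitochondrial and ribosomal protein genes and globins with a symbol in the total, −0.056 with depth weighted and −0.055 as a mean of cells. It was −0.077 without subclusters 5 and 7 and 0.064 without the 4 features. The S and G2 and M ratio (−0.19) was −0.25 at 30 per 10000, −0.18 with the erythroid limit of 20, −0.22 without mitochondrial and ribosomal protein genes and globins with a symbol, −0.12 with depth weighted and −0.085 without the 4 features. The globins taken out were HBB, HBM and HBQ1 only, and the 4 most abundant features stayed in that total. Metallothionein level outside the rule (287 CPM) was 277 CPM at 500 genes and 279 CPM at 5000 UMIs. The highest subcluster share (20.5%) was 27.6% at resolution 1. The globin share stayed within its interval under the 9 alternatives run for it, none of which takes genes out of the total. The depth weighting among them acts on the other erythroid cells only, so it could not move this share. The 30 named genes kept their direction under 5 of the 6 run for them. Without subclusters 5 and 7 it was 29: VIM went from −1.25 to 0.09, and ACTG1 (−0.79 to −0.18) and S100A10 (−0.54 to −0.04) came near 0. Removals of cells and of the 4 features were added after seeing the data.

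No paired analysis was possible because each breed has 1 library and no result comes from a test. Pooled embryos leave differences between animals unmeasured, and a buffer that lyses red cells came before capture, so erythroid shares describe this library only. Levels under a few CPM rest on few UMIs.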

Other observations

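Over all erythroid cells, the following 5 lists of markers of other tissues had lower sums in metallothionein-high cells than in the others, while the sum of extraembryonic endoderm markers was higher (1324 against 317 CPM). Of all 9164 features with 20 UMIs, 2287 were above 0, so counts of a few genes below 0 say little beside the sums. Endothelium markers, of which 0 of 5 with 20 UMIs were above 0, summed to 14.4 against 23.0 CPM, with the blood and vessel factor ETV2 the most abundant and CDH5, EMCN, ERG and FLI1 at 0. Macrophage markers (1 of 3 above 0) summed to 8.78 against 13.1 CPM, with CD68 the most abundant and CSF1R, CD14, CD163 and PTPRC at 0. Epithelium markers (0 of 7) summed to 84.1 against 123 CPM, with KRT19 the most abundant and CDH1 at 0. Neural markers (0 of 5) summed to 9.73 against 22.9 CPM, with NES the most abundant and SOX1 and OLIG2 at 0. Cardiomyocyte markers (3 of 6) summed to 10.0 against 18.3 CPM, with TNNI1 the most abundant and MYH6, NKX2-5 and NPPA at 0. Without subclusters 5 and 7 and the cell richest in AHSG the sums were 13.4 against 14.9 CPM (endothelium), 6.89 against 6.28 (macrophage), 53.9 against 50.3 (epithelium), 4.80 against 5.28 (neural) and 8.45 against 7.90 (cardiomyocyte), each with a log2 interval that includes 0.

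Genes of p53 signalling and apoptosis had a median log2 ratio of −0.26 in metallothionein-high cells, beside −0.17 for all features. Of these genes 3 of 10 were above 0, where 2287 of 9164 features were. Without subclusters 5 and 7 and the cell richest in AHSG the median was −0.05 beside −0.09, with 5 of 10 above 0. GADD45A, a stress-inducible gene, stood at 159 against 152 CPM over all erythroid cells. Genes of late red cell clearance had a median of −0.13. Genes of heme export and breakdown had a median of 0.05, with BLVRA, a biliverdin reductase, at 145 against 133 CPM. The complement and acute phase list had a median of 0.56 over 4 genes, with SERPINA1 nearly all of its sum of 199 against 26.1 CPM, most of it from the cell richest in AHSG. Without that cell and subclusters 5 and 7 the sum was 57.2 against 26.0 CPM, over 2 genes with 20 UMIs.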
